A study of Mus musculus with 6 samples.

Results

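The 76 genes described here are named for proteins of the mitochondrial ribosome, and all but Mrps36 (described below) encode such proteins. They are all rows of the count table whose symbol starts with Mrpl or Mrps followed by a digit, 76 of 14515 genes, and they divide by symbol into 47 large subunit genes (Mrpl) and 29 small subunit genes (Mrps). The rows were chosen by symbol, and the group itself was selected on measured KO and WT values of these data, among them the p-value of Mrps2, one of the smallest of all genes. All differences between genotypes below are therefore descriptions, each taken from a fit across every gene. RNA came from naive CD8 T cells of the spleens of 3 LAIR-1-deficient mice (Lair1-/-, KO below) and 3 wild type mice (Lair1+/+, WT below), with 1 library per mouse. From each spleen 100000 cells were sorted for surface proteins that included CD45, CD3 and CD8 and for lack of CD44. LAIR-1 is an inhibitory collagen receptor of leukocytes, and strain, age, sex and the part of Lair1 that the allele removes are not given in the labels.

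The mitochondrial ribosome translates the few proteins encoded in mitochondrial DNA, all of which are subunits of the oxidative phosphorylation complexes. Its rRNAs are made inside the organelle, while its proteins are encoded in the nucleus, made in the cytosol and imported. The small subunit binds the mRNA and decodes it, and the large subunit forms the peptide bond and releases the new chain at the inner membrane. Resting T cells carry few mitochondria and little translation capacity, and both grow when the cells are activated.

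Counts assigned to genes summed to between 5519748 and 7296424 in KO libraries and between 7974206 and 9187017 in WT libraries, so every KO library was shallower than every WT library. Lair1 had 2, 1 and 1 counts in KO mice 1 to 3 and 58, 32 and 43 counts in WT mice 1 to 3, which gave a log2 fold change of -4.58 (SE 0.57) and an adjusted p of 0.00255 in edgeR, the 1 call among all genes. That call was lost without WT mouse 1, at an adjusted p of 0.0592, and under limma-voom, at 0.142. The sorted cells carried T cell transcripts at 5110 to 5637 CPM in KO and 5212 to 5561 CPM in WT libraries, summed over Cd8a, Cd8b1, Cd3e, Cd3d and Cd3g (CPM, counts over the library total after TMM scaling). Of 20 listed markers of other splenic cells, 17 were among the rows measured and none of these was at 0 in all libraries. Several defining ones were at or near 0, such as Lyz2 and Ncr1, each at most 0.137 CPM in any library. The 4 B cell markers summed to 25.2 to 32.3 CPM in KO and 29.6 to 32.5 CPM in WT libraries, and the macrophage, NK, dendritic, erythroid and CD4 lists each stayed under 8 CPM in every library. Mouse 1 of each genotype stood apart in immediate early genes: Nr4a1, Fosb, Egr1 and Cd69 summed to 2525 CPM in KO mouse 1 and 2242 CPM in WT mouse 1, against 412 to 586 CPM in the other libraries. In bulk RNA, a gene with less RNA per cell cannot be told apart from fewer cells that express it.

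The genes lie on 17 chromosomes of GRCm38 (GENCODE vM21), with 10 on chromosome 11. RefSeq promoter windows on GRCm38.p6, from 250 bases before to 50 after the annotated start, were found for 67 of the 76 genes. The letters CCGGAAG, a core that ETS family factors such as GABP bind, stood on either strand in the windows of 24 of the 67 genes (35.8%), against 23.5% of the 7259 tested genes with a window and 9.93% of all 27025 genes with a window. The YY1 letters AAGATGGC were in 12 of the 67 (17.9%), against 6.30% of tested genes and 3.19% of all genes with a window. The NRF1 letters, GCGC and TGCGC with any base between them, where NRF1 is a factor known for nuclear genes of mitochondrial function, were in 12 of the 67 (17.9%), against 13.2% and 5.19%. The letters TATAAA were in 5 of the 67 (7.46%), against 7.98% and 15.7%. Median GC content was 58.3% over the 73 windows of these genes, against 61.0% over windows of tested genes and 52.7% over all windows. By subunit, the ETS letters were in 13 of 41 large and 11 of 26 small subunit genes, and the NRF1 letters in 9 of 41 and 3 of 26. The stretches below were chosen after values were seen and are shown because their genes recur in the results. Each lies before the annotated start, outside annotated exons, and is written 5′ to 3′ on the strand of its gene. Capitals mark the motif, which in Mrps27 and Mrpl52 is the reverse complement of the ETS letters.
Mrpl12, NRF1 letters beginning 81 bases before the start, chr11:120484534-120484587, plus strand: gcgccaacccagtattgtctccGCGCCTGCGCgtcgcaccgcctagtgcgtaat
Mrpl45, NRF1 letters beginning 38 bases before the start, chr11:97315656-97315709, plus strand: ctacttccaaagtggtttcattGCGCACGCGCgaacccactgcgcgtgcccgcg
Mrps22, ETS letters beginning 11 bases before the start, chr9:98601680-98601712, minus strand: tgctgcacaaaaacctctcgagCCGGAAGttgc
Mrps27, ETS letters beginning 48 bases before the start, chr13:99344716-99344766, plus strand: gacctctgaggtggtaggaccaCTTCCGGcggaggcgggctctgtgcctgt
Mrpl52, ETS letters beginning 47 bases before the start, chr14:54426840-54426890, plus strand: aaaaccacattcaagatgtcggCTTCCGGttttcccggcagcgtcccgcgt
Of the 3 genes shown with the ETS letters, Mrps22 and Mrps27 had log2 fold changes of -0.43 and -0.26 between KO and WT. Mrpl52 had 0.07, and none of the 3 passed the test. The 24 genes with these letters went both ways, among them Mrpl27 at 0.35 and Mrps16 at -0.23. A link between letters and fold change was not tested. A match of letters is a description of the window and shows no binding.

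All 76 genes were detected in every library and passed the low-count filter, with 37 to 1451 counts per gene and library. Their median level was 27.8 CPM, against 19.8 CPM over the 9565 genes tested, and 53 of the 76 lay above that median. Levels ran from 141 CPM for Mrpl53 to 8.20 CPM for Mrps25, a 17.2-fold range. The order of the genes was nearly the same in both genotypes, with a Spearman correlation of 0.99 between KO and WT mean CPM over the 76 genes, which share the same libraries.

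The 4 large subunit genes with the highest CPM were Mrpl53, Mrpl30, Mrpl52 and Mrpl23. Mrpl53 encodes a protein with no bacterial counterpart and was at 136, 160 and 136 CPM in KO mice 1 to 3 and 128, 159 and 128 CPM in WT mice 1 to 3. In both genotypes mouse 2 was the highest, and the groups overlapped. Mrpl30, whose protein has a bacterial L30 counterpart, averaged 111 ± 8.49 CPM in KO and 117 ± 5.26 CPM in WT cells (SD, n = 3 each). Mrpl23, whose bacterial counterpart borders the exit of the peptide tunnel, averaged 96.2 ± 4.69 CPM in KO and 88.7 ± 5.67 CPM in WT cells. Mrpl52 was at 129 CPM in KO mouse 1 and 98.4 to 109 CPM in the 5 other libraries. The 4 highest small subunit genes were Mrps21, Mrps16, Mrps33 and Mrps14. Mrps21, which has a bacterial S21 counterpart, averaged 81.9 ± 1.79 CPM in KO and 75.3 ± 7.36 CPM in WT cells. Mrps33 and Mrps14 averaged 59.8 ± 3.46 and 54.4 ± 3.00 CPM in KO cells and 65.0 ± 4.72 and 57.8 ± 3.27 CPM in WT cells. At the low end, Mrpl46 averaged 9.31 ± 2.89 CPM in KO and 10.3 ± 1.62 CPM in WT cells, and Mrps25 averaged 8.05 ± 0.746 and 8.35 ± 2.42 CPM.

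**Figure D1:**
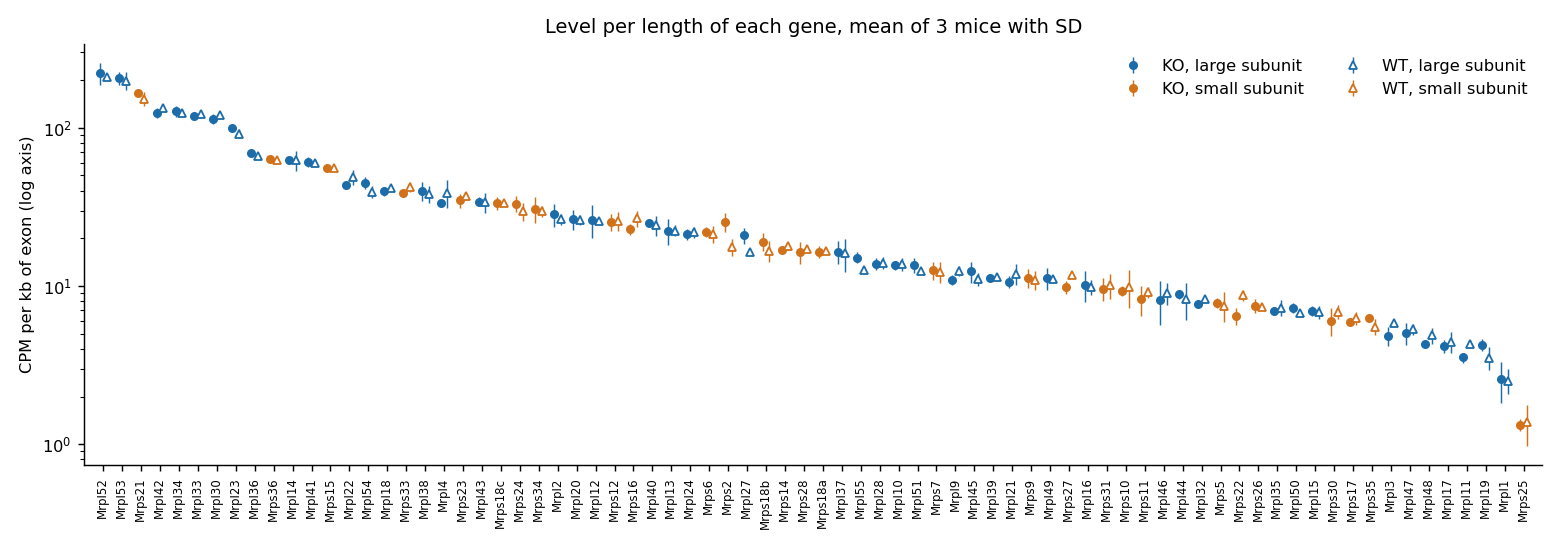
Level of each of the 76 genes per length, in CPM per kilobase of exon on a log axis, ordered from high to low; filled circles are KO and open triangles WT means with the SD over 3 mice, blue for the large and orange for the small subunit. The order starts at Mrpl52 and Mrpl53 and ends at Mrpl1 and Mrps25, and KO and WT points of the same gene lie close together next to the 160-fold range of levels. The order and the range hold only if reads cover whole transcripts, which the labels do not state.

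Divided by exon length, which was 478 to 7605 bases with a median of 1340, levels spread over 160-fold. Mrpl52 led at 222 ± 34.9 CPM per kb in KO and 211 ± 9.16 CPM per kb in WT cells, followed by Mrpl53 at 207 ± 19.8 and 199 ± 25.4 CPM per kb. These genes did not differ beyond their spread. Mrps21 was next at 166 ± 3.64 and 153 ± 15.0 CPM per kb. Mrps25, with 6073 bases of exon, was last at 1.33 ± 0.123 CPM per kb in KO and 1.37 ± 0.399 CPM per kb in WT cells. Medians per length were close in the large and small subunits, at 16.3 and 16.8 CPM per kb. Of the 10 highest genes per length, 8 were large subunit genes, and 8 of the 10 were also among the 10 highest by CPM. Across the 76 genes CPM and exon length had a Spearman correlation of -0.22. Whether reads cover whole transcripts is not stated in the labels. The order, the range and the subunit medians per length hold only if they do.

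As a group, the 76 genes differed between genotypes by less than the spread between mice. Their CPM summed to 2789, 2687 and 2649 in KO mice 1 to 3 and to 2703, 2756 and 2654 in WT mice 1 to 3, or 2708 ± 72.6 in KO and 2704 ± 50.9 in WT cells. The highest library was 1.05-fold above the lowest, and the groups overlapped. Large subunit genes summed to 1812 ± 56.9 CPM in KO and 1809 ± 39.4 CPM in WT cells, and small subunit genes to 897 ± 15.8 and 896 ± 17.0 CPM. The large to small ratio of these sums, with subunits by symbol, was 2.05, 2.01 and 2.00 in KO mice 1 to 3 and 1.98, 2.05 and 2.03 in WT mice 1 to 3, again with overlap. In the same libraries the mitochondrial rRNAs mt-Rnr1 and mt-Rnr2 together ranged 1.61-fold, with their highest sums in KO mouse 2 and WT mouse 3, and cytosolic ribosomal protein genes 1.17-fold. Relative to each gene's own mean, the median log2 deviation of large subunit genes was highest in WT mouse 2 (0.06) and KO mouse 1 (0.05) and lowest in WT mouse 3 (-0.04). That of small subunit genes was highest in WT mouse 1 (0.04) and equally low in KO mice 2 and 3 (-0.03 each).

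**Figure D2:**
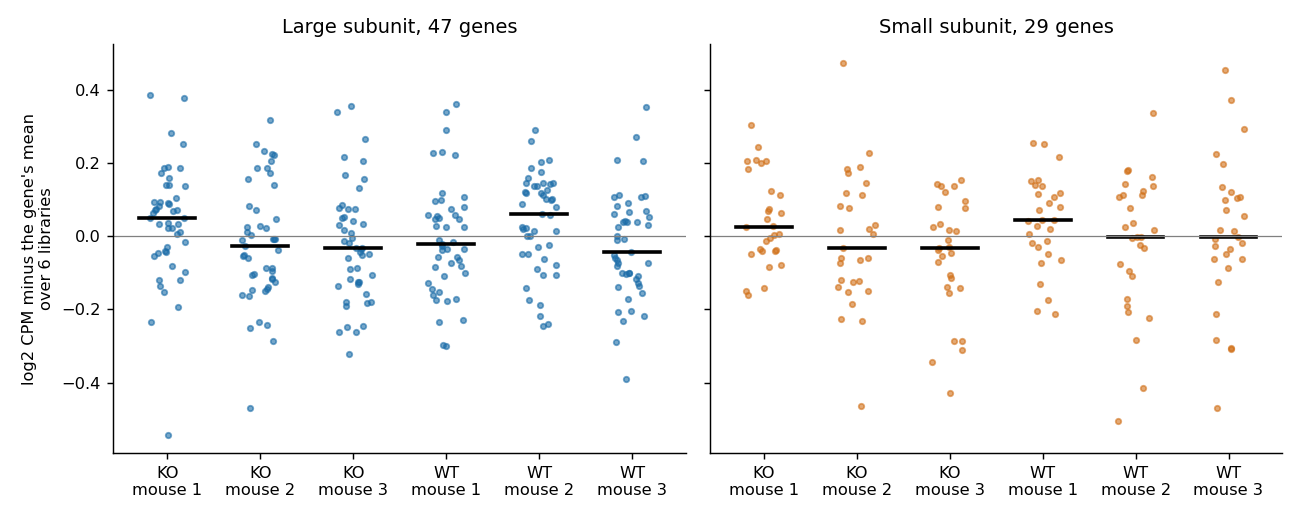
Each point is 1 gene in 1 library, as its log2 CPM minus its mean over the 6 libraries, for 47 large subunit genes (left) and 29 small subunit genes (right); black bars are medians and libraries are KO mice 1 to 3 and then WT mice 1 to 3. The medians of all libraries lie within 0.06 of 0 and those of KO and WT libraries overlap.

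Gene by gene, none of the 76 passed the edgeR test between genotypes, in either direction. Over all 9565 genes tested, 0.0105% passed at an adjusted p under 0.05, which was Lair1 alone. The smallest adjusted p of a mitochondrial ribosomal protein gene was 0.9999. At an unadjusted p under 0.05 there were 2 genes, Mrps2 higher and Mrps22 lower, against 3.25% of all genes tested (1.81% higher and 1.44% lower). DESeq2 and limma-voom also called 0 of the 76, with 1 and 3 of them at an unadjusted p under 0.05. The share of all genes at that threshold is not given for these tools, so the counts have no background.

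Fold changes were small and went both ways in both subunits. Of the large subunit genes 25 had a positive and 22 a negative log2 fold change, with a median of 0.02, and of the small subunit genes 14 had a positive and 15 a negative one (median -0.02). Over all genes tested 50.2% were positive with a median of 0.00059. The median of each subunit rests in part on KO mouse 1: without it the medians were -0.06 for the large and -0.07 for the small subunit. The absolute log2 fold change was under 0.2 in 66 of the 76 genes (86.8%), against 73.2% of all genes tested and 81.6% of the 6163 tested genes within the same range of levels. For 68 of the 76 genes both ends of the 95% interval stayed under 1.5-fold (89.5%), as it did for 63.2% of all genes tested and 83.0% at the same range of levels. Changes past 2-fold were outside the interval for all 76, for 85.9% of all genes tested and for 98.8% at the same range of levels. The 8 genes whose interval reached past 1.5-fold were Mrps2, Mrpl27, Mrpl19 and Mrpl55 on the higher side and Mrps22, Mrpl11, Mrpl46 and Mrps11 on the lower side.

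**Figure D3:**
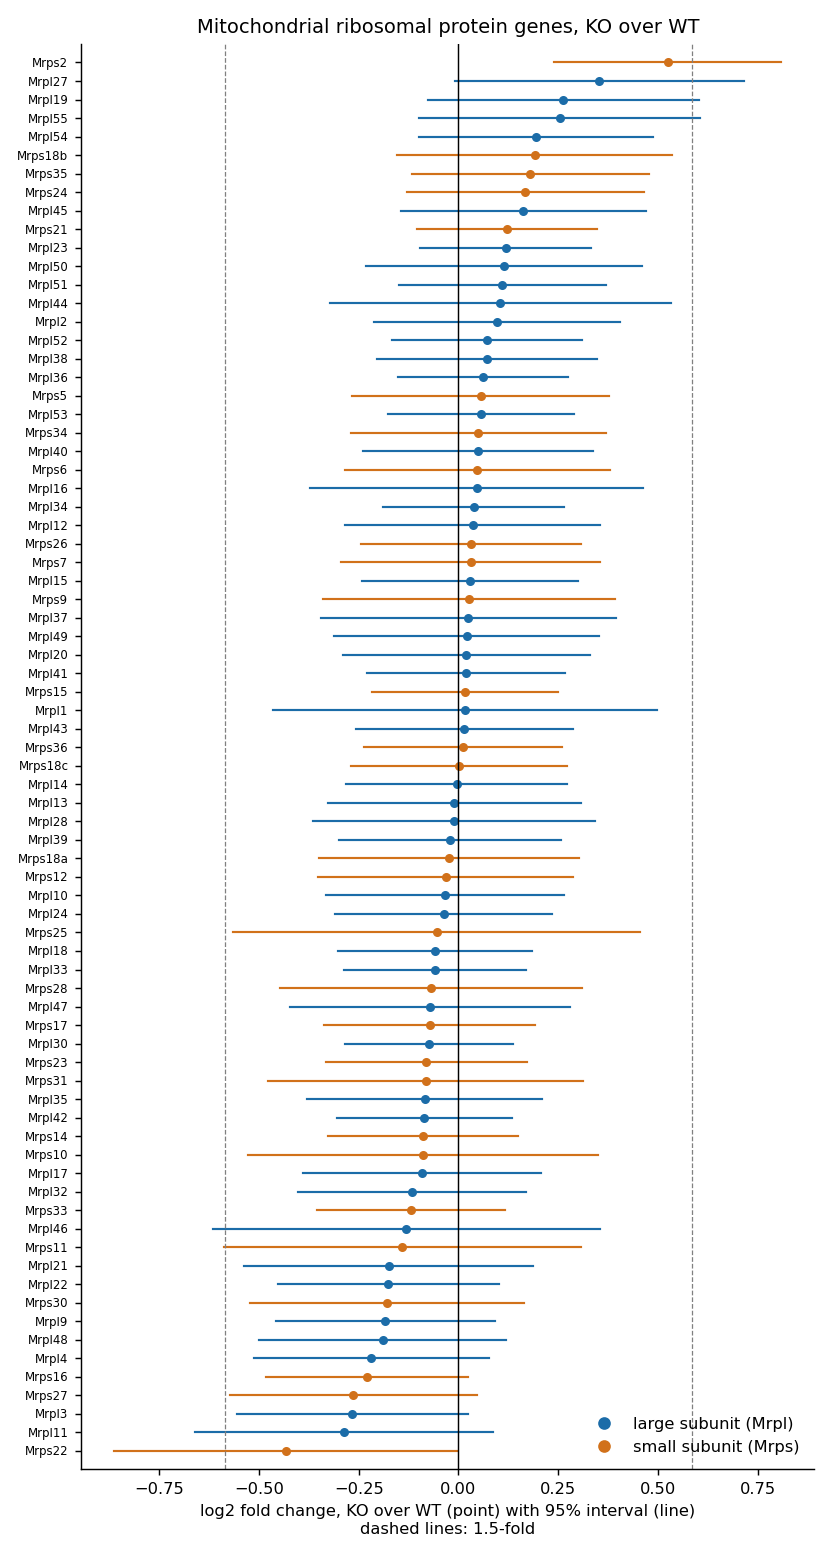
Log2 fold change, KO over WT, of each of the 76 genes from edgeR (points) with its 95% interval (lines), blue for large and orange for small subunit genes; dashed lines mark 1.5-fold. The intervals of Mrps2, from 0.24 to 0.81, and of Mrps22, from -0.86 to -0.0031, do not include 0, and those of the other 74 genes do.

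KO and WT libraries did not overlap for 10 of the 76 genes (13.2%), 5 higher and 5 lower in KO, against 8.37% of all genes tested (4.30% higher and 4.08% lower). The higher ones were Mrps2, Mrpl27, Mrpl55, Mrps35 and Mrpl36, and the lower ones Mrps22, Mrpl11, Mrpl3, Mrps27 and Mrpl33. The smallest of these differences were under 0.1 on the log2 scale: Mrpl36 was at 84.4, 78.0 and 78.1 CPM in KO and 77.3, 77.2 and 76.1 CPM in WT mice 1 to 3. Mrpl33 was at 56.4, 56.1 and 56.9 CPM in KO and 57.1, 58.5 and 61.1 CPM in WT mice 1 to 3. With libraries scaled by their totals alone the count was 9, and the share over all genes under that scaling is not given.

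Mrps2 had the largest difference among the 76 genes. It encodes the counterpart of bacterial S2, a protein of the small subunit, and lies on the plus strand of chromosome 2 from 28468066 to 28471178 in GRCm38 (ENSMUSG00000035772.11). It had 345, 342 and 352 counts in KO mice 1 to 3 and 300, 371 and 282 counts in WT mice 1 to 3. Scaled to library size this was 49.7, 60.8 and 48.1 CPM in KO and 37.8, 40.5 and 31.6 CPM in WT mice. Each KO library was above each WT library, with mouse 2 the highest of both genotypes. Means were 52.8 ± 6.91 CPM in KO and 36.6 ± 4.58 CPM in WT cells, a log2 fold change of 0.52 (SE 0.14) at an unadjusted p of 0.00113 and an adjusted p of 0.9999. By unadjusted p it was sixth among all genes tested. Its log2 fold change stayed between 0.42 and 0.60 when single libraries were left out, and its adjusted p between 0.193 and 0.9999 over 14 other settings. It was the gene with the widest spread over libraries of the 76, at 1.92-fold between the highest and the lowest, where the median gene spread 1.34-fold.

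**Figure D4:**
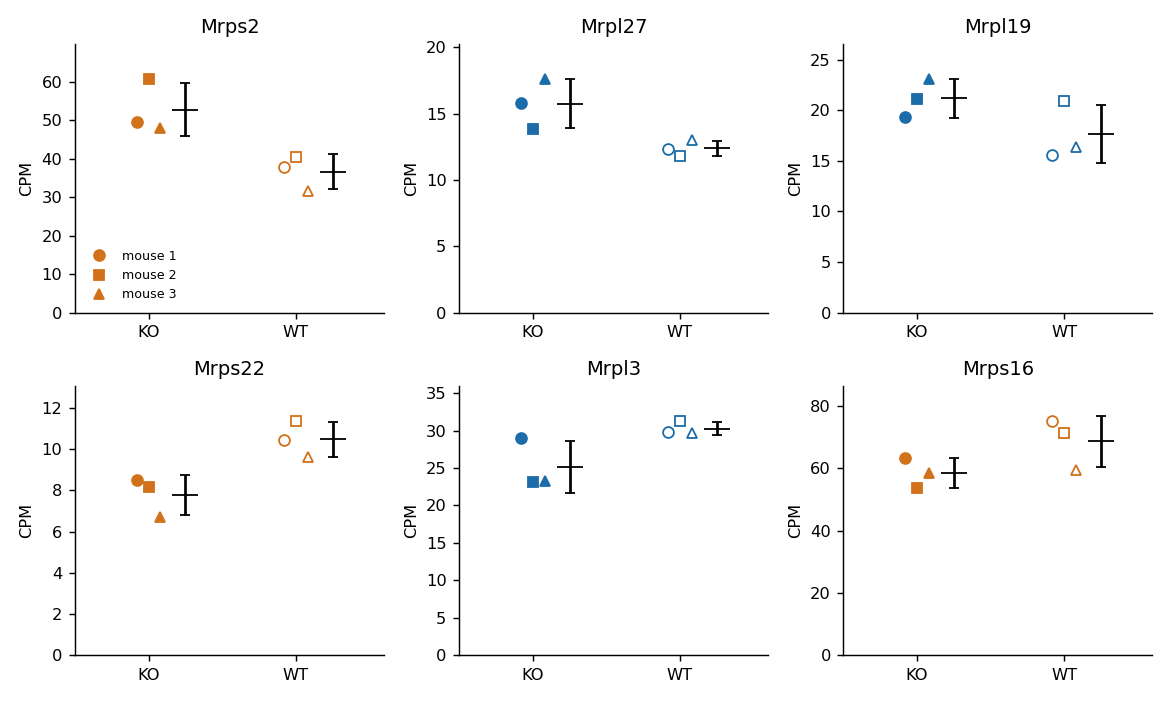
CPM in each library for the 3 genes with the smallest unadjusted p in the higher direction (top: Mrps2, Mrpl27, Mrpl19) and in the lower direction (bottom: Mrps22, Mrpl3, Mrps16); KO is left of WT, symbols mark mouse number, and bars give the mean and SD of 3 mice. KO and WT points are apart for Mrps2, Mrpl27, Mrps22 and Mrpl3 and overlap for Mrpl19 and Mrps16, and none of the 6 genes passed the test.

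The next genes in the higher direction were large subunit genes at lower levels. Mrpl27, whose bacterial counterpart lies near the peptidyl transferase centre, was at 15.8, 13.9 and 17.6 CPM in KO and 12.3, 11.8 and 13.0 CPM in WT mice 1 to 3, which put its log2 fold change at 0.35, with a 95% interval from -0.0079 to 0.71. Each KO value was above each WT value. Mrpl19, with a bacterial L19 counterpart, averaged 21.2 ± 1.89 CPM in KO and 17.6 ± 2.85 CPM in WT cells, and its WT mouse 2 lay within the KO range. Mrpl55 and Mrpl54, whose proteins have no bacterial counterpart, had log2 fold changes of 0.25 (-0.10 to 0.61) and 0.20 (-0.10 to 0.49).

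In the lower direction the set was mixed between subunits. Mrps22, a small subunit protein with no bacterial counterpart, was at 8.49, 8.17 and 6.69 CPM in KO and 10.5, 11.4 and 9.64 CPM in WT mice 1 to 3. These rest on 59, 46 and 49 counts in KO and 83, 104 and 86 counts in WT libraries. Every KO value was below every WT value, with a log2 fold change of -0.43, an SE of 0.20 and an unadjusted p of 0.0485. Mrpl3, whose bacterial counterpart is a core protein of the large subunit, was at 29.1, 23.1 and 23.2 CPM in KO and 29.9, 31.3 and 29.7 CPM in WT mice. KO mouse 1 was close to the WT values, and the log2 fold change was -0.27 (-0.56 to 0.02), or -0.39 without KO mouse 1. Mrps16, with a bacterial S16 counterpart, averaged 58.6 ± 4.83 CPM in KO and 68.7 ± 8.21 CPM in WT cells with overlap. Mrps27, a pentatricopeptide repeat protein of the small subunit, averaged 18.1 ± 1.63 CPM in KO and 21.7 ± 0.394 CPM in WT cells.

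Among genes of known parts of the ribosome, the stalk of the large subunit, which recruits translation factors, includes the products of Mrpl10, Mrpl11 and Mrpl12. Mrpl11, at the base of the stalk, was at 11.5, 11.0 and 9.97 CPM in KO and 13.98, 12.8 and 12.9 CPM in WT mice 1 to 3, with no overlap and a log2 fold change of -0.29 (-0.66 to 0.09). Mrpl10 averaged 23.03 ± 1.40 CPM in KO and 23.6 ± 2.20 CPM in WT cells. Mrpl12 was at 43.9 CPM in KO mouse 1 but 28.6 and 31.0 CPM in KO mice 2 and 3, against 34.4, 32.3 and 34.5 CPM in WT mice 1 to 3. Its log2 fold change of 0.04 became -0.18 without KO mouse 1, a library high in immediate early genes. The part of those genes in this was not tested. Mrpl45, which anchors the mammalian ribosome at the inner membrane, averaged 30.0 ± 4.68 CPM in KO and 26.8 ± 2.54 CPM in WT cells. Mrps12, the counterpart of the decoding centre protein S12 of bacteria, averaged 23.6 ± 2.90 and 24.0 ± 3.20 CPM.

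A few symbols do not match where the protein sits. In structures of the mammalian ribosome the products of Mrps30 and Mrps18a are in the large subunit, and that of Mrps36 is a part of the oxoglutarate dehydrogenase complex. Mrps30 averaged 20.0 ± 3.93 CPM in KO and 22.7 ± 2.31 CPM in WT cells, and Mrps36 averaged 44.4 ± 2.43 and 44.0 ± 1.81 CPM. Among the 3 counterparts of bacterial S18, Mrps18c had the highest mean CPM over all libraries, at 31.3 against 19.3 for Mrps18b and 17.2 for Mrps18a. Mrps18c was highest per length too, which holds only if reads cover whole transcripts. It was at 33.4 ± 2.97 CPM per kb in KO and 33.3 ± 0.438 CPM per kb in WT cells. Mrps18b was at 19.1 ± 2.47 and 16.7 ± 2.47 CPM per kb, and Mrps18a at 16.5 ± 1.44 and 16.7 ± 0.111 CPM per kb, so these last did not differ beyond their spread. With genes assigned by structure instead of symbol, the large minus small difference in median log2 fold change was 0.03, against 0.04 by symbol. The large to small ratio of summed CPM by structure was higher than by symbol. It was 2.315, 2.246 and 2.242 in KO mice 1 to 3 and 2.231, 2.303 and 2.298 in WT mice 1 to 3.

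Proteins of the mitochondrial ribosome under other symbols were likewise without a call. Of 7 such genes, 3 had a positive and 4 a negative log2 fold change, with 0 past the test in either direction. Ict1 (now Mrpl58), which frees stalled ribosomes, averaged 88.8 ± 8.10 CPM in KO and 92.2 ± 5.55 CPM in WT cells, and Mrp63 (now Mrpl57) averaged 51.2 ± 2.57 and 53.2 ± 3.91 CPM. Gadd45gip1 and Aurkaip1 had the smallest p of the 7, with log2 fold changes of 0.14 and -0.10.

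Genes that act with the ribosome also had 0 of their members past the test, among 13 translation factors, 27 assembly and rRNA modification genes, 20 mitochondrial tRNA synthetases, 18 genes of mitochondrial transcription and RNA processing and both rRNAs. Median log2 fold changes were 0.01 for the first and second of these lists, -0.11 for the synthetases and -0.07 for transcription and RNA processing. Gfm1, an elongation factor, was at 15.4, 24.3 and 22.3 CPM in KO and 16.5, 15.3 and 17.4 CPM in WT mice 1 to 3, and Mtif2, an initiation factor, had a log2 fold change of -0.21. Rpusd4, a pseudouridine synthase of the large rRNA, was at 16.4, 14.7 and 10.4 CPM in KO and 18.8, 17.9 and 18.5 CPM in WT mice, with no overlap and a log2 fold change of -0.41 (-0.79 to -0.03). Trmt2b, a methyltransferase, had a log2 fold change of 0.33. Among synthetases, Fars2 averaged 6.08 ± 1.93 CPM in KO and 4.07 ± 0.731 CPM in WT cells. Vars2 averaged 8.10 ± 1.43 CPM in KO and 6.14 ± 0.788 CPM in WT cells, with no overlap. Tfam, which packages mitochondrial DNA and starts its transcription, was at 44.1, 48.3 and 51.7 CPM in KO and 53.0, 63.8 and 56.9 CPM in WT mice, with no overlap, a log2 fold change of -0.27 and an unadjusted p of 0.0384. The RNase P subunit gene 1110008L16Rik had a log2 fold change of -0.54 (-1.26 to 0.17) at 4.89, 3.73 and 1.91 CPM in KO and 5.92, 4.59 and 4.82 CPM in WT mice 1 to 3. The rRNA genes mt-Rnr1 and mt-Rnr2 had log2 fold changes of -0.16 (-1.35 to 1.03) and -0.03 (-0.39 to 0.32).

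Beside these, the 77 tested genes of the cytosolic ribosome had a median level of 2473 CPM, against 27.8 CPM for the mitochondrial ones. Their summed CPM was 86.2, 77.8 and 83.05 times that of the mitochondrial ribosomal protein genes in KO mice 1 to 3 and 84.4, 80.6 and 77.8 times in WT mice 1 to 3, with overlap between genotypes. Of the cytosolic genes 52 had a positive and 25 a negative log2 fold change, with a median of 0.02. Rps28 and Rpl38 had the smallest p among them, with log2 fold changes of 0.24 and 0.22, and 0 of the 77 passed the test.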

How the data were processed

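Naive CD8 T cell RNA of 3 KO and 3 WT mice was sequenced after library preparation that, per the labels' protocols, used TruSeq small RNA primers of Illumina. The authors deposited raw counts per gene. The submitters' processing notes name BWA and mm10; annotation, counting tool and strand setting are not stated there, so overlapping genes and pseudogene copies cannot be told apart. Columns were matched by sample description, and 4 spike-in rows were left out. No pair of libraries agreed within sampling noise (chi-square per gene 4.99 to 23.4). Replicates are mice.

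The test was run in edgeR 4.0.16 (R 4.3.3): filterByExpr at a smallest count of 10, TMM on full library totals, robust quasi-likelihood F test, two-sided, Benjamini-Hochberg over 9565 genes at 0.05, and an SE from the fold change and F. Exon length is the union of basic protein-coding exons of GENCODE vM21. DESeq2 1.42.0, limma 3.58.1, other scalings and filters, a mouse block and left-out libraries were tried. The fit was tested on simulated data with 200 genes changed per run and the mitochondrial ribosomal protein genes all shifted by a smaller fold. There it called 34.5% of genes changed 1.5-fold and 75.6% of genes changed 2-fold. So many changed genes make the adjusted threshold easier to pass than in the measured data, where 1 gene was called. The shares are thus not the sensitivity for a lone changed gene here, which can be lower. Changes of these sizes can therefore go uncalled. The genes and lists were chosen with earlier results of these data known. Named are the 4 highest and the lowest gene per subunit, the 5 smallest p per direction, genes of known place or role, and the 2 smallest p per related list. Mrp63 and any other gene named outside that rule were chosen after their values were seen.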

Additional observations from a re-analysis of the deposited data

How the results depend on the processing

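No gene of the mitochondrial ribosome was called under any of the 14 other settings tried (scaling, filter, tool, mouse block, left-out libraries). The count over all genes, 1 as reported, was 3 with no filter, 0 with the stricter filter, 0 under limma-voom, 0 without mouse 1 of both groups and between 0 and 2 when single libraries were left out (0 without WT mouse 1, 2 without KO mouse 2 or KO mouse 3). The log2 fold change of Lair1 was -4.20 with limma-voom (adjusted p 0.142), -4.61 without mouse 1 of both groups (0.0712) and between -4.93 and -4.26 without single libraries, where its call was lost without WT mouse 1 (0.0592). The large subunit median was -0.062 without mouse 1 of both groups and between -0.055 and 0.034 without single libraries. The small subunit median was between -0.075 and -0.0036 without single libraries. The large minus small difference was -0.038 without mouse 1 of both groups and between -0.024 and 0.076 without single libraries. Signs of genes near 0 turned. Without mouse 1 of both groups Mrpl12 was at -0.17, Mrpl52 at -0.10, Mrps12 at 0.064 and Mrps18c at -0.0062. Mrps18c was at -0.0035 with no filter, -0.0011 with the stricter filter, -0.0054 under limma-voom and -0.00080 with the mouse block. Without single libraries the log2 fold change ranged from -0.10 to 0.03 for Mrpl10, -0.18 to 0.15 for Mrpl12, -0.41 to 0.030 for Mrpl46, -0.070 to 0.14 for Mrpl52 and -0.025 to 0.17 for Mrpl53. It ranged from -0.14 to 0.045 for Mrps12, -0.10 to 0.025 for Mrps18a, -0.057 to 0.068 for Mrps18c, -0.27 to 0.14 for Mrps25 and -0.027 to 0.050 for Mrps36. The cause of these shifts was not tested. The labels do not say whether mouse numbers pair the samples. The correlation of deviations of same-numbered libraries was 0.29, 0.0094 and 0.065 for mice 1, 2 and 3. Between KO and WT libraries of unlike number it ran from -0.22 to 0.18. Mouse 1 of both genotypes was also high in immediate early genes, and whether these libraries share a batch was not tested. The edgeR fit with the replicate block called 1 gene in all and 0 of the 76, with an adjusted p of 0.544 for Mrps2.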

Other observations

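Many genes of the mitochondrial ribosome begin beside another gene. By the GENCODE starts, 22 of the 76 (28.9%) had a protein-coding neighbour on the other strand that starts within 1000 bases upstream or overlaps the start by at most 200 bases, against 1232 of the 8783 tested genes with an annotated start. The neighbours include Sars2, the mitochondrial seryl-tRNA synthetase gene, 172 bases from Mrps12, Fau, which encodes a protein of the cytosolic small subunit, 59 bases from Mrpl49, and Psma2, a proteasome subunit gene, 75 bases from Mrpl32. Fau averaged 2419 CPM in KO and 2352 CPM in WT cells, and Mrpl49 averaged 19.7 ± 3.10 CPM in KO and 19.4 ± 1.11 CPM in WT cells. Sars2 had a log2 fold change of 0.13 and Mrps12 one of -0.03, and neither passed the test.

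Mrpl46 and Mrps11 diverge on chromosome 7 and overlap by 413 bases, and both were low. Mrpl46 averaged 9.31 ± 2.89 CPM in KO and 10.3 ± 1.62 CPM in WT cells, and Mrps11 averaged 8.68 ± 1.84 and 9.65 ± 0.727 CPM. In all, 26 of the 76 genes overlap another protein-coding gene, a share that was not computed over all genes. Whether reads were assigned by strand is not stated in the labels. One of these partners, the complex I gene Ndufb5, lies opposite Mrpl47 and was at 169 ± 11.7 CPM in KO and 133 ± 9.16 CPM in WT cells, a log2 fold change of 0.34 with an unadjusted p of 0.00272 and an adjusted p of 0.9999 in edgeR, while Mrpl47 had -0.07. Ndufb5 and the pairs named here were chosen after their values were seen.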
